A study of Mus musculus with 23 samples.

Results

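Arg2, Maoa, Il1rap, Serpinb8, Srl, Calhm5 and Scgn are 7 of the 24985 gene symbols counted in the hippocampus of mice with and without the acetyl-CoA synthetase gene Acss2. They were chosen by their dorsal hippocampus values, because they stood lower in wild type (WT) mice after fear conditioning than in WT mice taken from the home cage, or because their fear change there was more positive in Acss2 knockout (KO) mice. The dorsal values that chose them are given below as a description, and counts of calls given for them restate the choice and support nothing. Their levels in whole hippocampus did not enter the choice and were tested. All 7 were in both count tables and passed the filter on low counts in each, beside 15453 genes tested in whole and 14808 in dorsal hippocampus.

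Poly(A) RNA was sequenced from C57BL6/J mice. KO mice carried a deletion of Acss2 exons 3 to 7 made in embryos at the single-cell stage, a constitutive loss that is not limited to neurons or to adult life. The dorsal experiment used 1 mm sections cut with a brain matrix, in 4 groups: KO fear (4 libraries) and WT fear (3 libraries), killed 30 minutes after a single shock in a conditioning context, and KO home cage (5 libraries) and WT home cage (5 libraries), killed without training. The whole hippocampus experiment used freehand dissected tissue of untrained KO, heterozygous (Het) and WT mice, with 2 libraries each. The labels used here give neither age nor sex and do not say that each library was a separate animal, so p-values measure the spread between these libraries, which may be technical.

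ACSS2 makes acetyl-CoA from acetate and is known for supplying acetyl groups to histones in neurons. The 7 genes do not form a pathway. Arg2 and Maoa encode mitochondrial enzymes, of arginine breakdown and of monoamine breakdown. Il1rap encodes a receptor subunit of the interleukin 1 family, and Serpinb8 an inhibitor of serine proteases. Srl, Calhm5 and Scgn encode proteins linked to calcium: a calcium-binding protein of the reticulum lumen, a channel family member and a cytosolic calcium sensor.

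Promoters were looked at because fear conditioning induces Fos and Jun genes within minutes, and their proteins bind the AP-1 motif. Of the 7 genes, 5 had an entry in the RefSeq promoter table of build GRCm38.p6, and Arg2 and Srl had none. In the 250 bases before the start, searched on both strands, the AP-1 motif TGANTCA was present in Serpinb8 at position -23 and in Scgn at position -191 relative to the start, against 6.87% of 27025 promoters. Both stretches are printed 5′ to 3′ with the motif in capitals. The Serpinb8 stretch is chr1:107589756-107590005 on the plus strand, and the Scgn stretch is chr13:23991215-23991464 on the minus strand.

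Serpinb8: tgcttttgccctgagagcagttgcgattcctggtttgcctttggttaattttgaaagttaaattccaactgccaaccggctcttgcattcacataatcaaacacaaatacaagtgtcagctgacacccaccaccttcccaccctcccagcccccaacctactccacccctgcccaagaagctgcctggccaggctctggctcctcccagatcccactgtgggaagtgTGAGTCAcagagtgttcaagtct

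Scgn: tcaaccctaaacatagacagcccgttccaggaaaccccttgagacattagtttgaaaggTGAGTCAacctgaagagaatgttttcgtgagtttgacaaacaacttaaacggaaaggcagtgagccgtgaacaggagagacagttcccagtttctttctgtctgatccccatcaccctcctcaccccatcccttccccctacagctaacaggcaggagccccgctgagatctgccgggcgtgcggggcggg

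The AP-1 letters of both are TGAGTCA, and Serpinb8 held a second match at position 14 after the start. Calhm5 held the E-box CACGTG at position -203, a motif present in 6.05% of promoters. The cyclic AMP response element TGACGTCA (1.62% of promoters), the EGR motif GCGNGGGCG (4.65%) and TATAAA (13%) were in none of the 5 stretches. These matches are letters in a window, and none shows that a factor was bound.

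Dorsal libraries held 5362773 to 23412644 counts and whole hippocampus libraries 18814460 to 27293661. Levels are given in CPM, counts scaled to a TMM-adjusted library size. Acss2 itself stood at 5.18 to 6.04 CPM in KO fear libraries and 3.87 to 5.85 CPM in KO home cage libraries, against 56.2 to 57.7 CPM in WT fear and 57.6 to 71.3 CPM in WT home cage libraries. The whole hippocampus libraries had 6.73 and 7.02 CPM of Acss2 in KO and 31.2 and 34.3 CPM in Het, against 60.9 and 60.3 CPM in WT libraries. The labels place the dorsal libraries in 3 batches. Batch B1 holds KO fear 1 and 2, all 3 WT fear libraries and WT home cage 1 and 2. Batch B2 holds KO home cage 1 to 3 and WT home cage 3 to 5, and batch B3 holds KO fear 3 and 4 and KO home cage 4 and 5. B1 is thus the only batch with both WT groups, and it has no KO home cage library. Differences below are log2 differences from edgeR with a batch term over the 17 dorsal libraries, with an approximate SE. As a check of the training, 9 of 12 listed rapid activity genes rose in WT fear against WT home cage libraries, among them Fos, by 2.54 ± 0.31 (edgeR adjusted p = 0.0015), where 0.871% of all genes were called higher. In KO fear against KO home cage libraries edgeR called 0 of the 12, with 6 at an unadjusted p under 0.05 and 4 called higher by DESeq2, and the median log2 difference was 0.43, against 1.51 for WT fear against WT home cage. The KO home cage level was the higher start: KO home cage minus WT home cage had a list median of 0.49. There edgeR called 0 of the 12, with 7 at an unadjusted p under 0.05. The summed level of the list was 411 to 671 CPM in KO home cage and 336 to 452 CPM in WT home cage libraries. After fear it was 631 to 636 CPM in KO libraries of B1, 966 to 1041 CPM in those of B3 and 756 to 1060 CPM in WT libraries. For the fear change in KO minus that in WT, edgeR called 3 of the 12 lower, Egr2, Junb and Egr1, with a list median of -0.99, where 0.284% of all genes were called lower.

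The arginase gene Arg2 (ENSMUSG00000021125.6, chr12:79130777-79156301 of mm10, plus strand, 8 exons) encodes the enzyme that splits arginine into ornithine and urea in mitochondria. It stood at 1.13, 0.767 and 1.14 CPM in WT fear libraries, against 4.83, 4.52, 5.33, 5.32 and 7.15 CPM in WT home cage libraries. These groups did not overlap, but the WT fear values rest on 6, 7 and 9 reads, and the exact 95% Poisson interval of the 7 reads was 2.81 to 14.4 reads, for counting error alone. In KO fear libraries Arg2 stood at 4.78, 5.66, 1.88 and 1.57 CPM, against 6.03, 2.69, 5.97, 1.82 and 2.31 CPM in KO home cage libraries. The 2 higher KO fear libraries are those of B1 and the 2 lower those of B3, where the KO home cage libraries were low too. The log2 difference was -2.37 ± 0.39 (WT fear minus WT home cage) and 0.04 ± 0.29 (KO fear minus KO home cage). Where Arg2 exons overlap genes of the opposite strand, their reads cannot be told apart, because the library kit does not mark strand: Vti1b covers 20% and Gm48780 8.12% of the Arg2 exon bases. Vti1b, a vesicle fusion gene, averaged 152.6 CPM in WT fear and 170.0 CPM in WT home cage libraries, a log2 difference of -0.22 ± 0.17 (edgeR adjusted p = 0.445).

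Maoa (ENSMUSG00000025037.6, chrX:16619698-16687818, plus strand, 15 exons) encodes monoamine oxidase A, which breaks down serotonin and noradrenaline. It stood at 42.9, 35.2 and 31.6 CPM in WT fear libraries, against 53.2, 62.7, 51.7, 50.03 and 50.2 CPM in WT home cage libraries, with no overlap. The KO groups overlapped, at 57.8, 52.6, 47.5 and 43.1 CPM in KO fear libraries and 54.9, 44.9, 46.2, 44.8 and 41.0 CPM in KO home cage libraries. Fear minus home cage was, on the log2 scale, -0.65 ± 0.12 in WT and 0.04 ± 0.11 in KO mice. Maoa had the smallest WT difference of the 6 genes whose WT groups were apart. Its level was 8.77 ± 1.39 CPM per kb of exon in WT fear and 12.9 ± 1.27 CPM per kb in WT home cage libraries (SD, n = 3 and 5). That was the highest of the 7 where the exon bases of all transcripts of a gene are counted. Il1rap then has 11360 bases over 7 transcripts, against 4520 in its longest one. The place of Maoa before Il1rap depends on that choice of length.

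Il1rap (ENSMUSG00000022514.14, chr16:26581704-26730117, plus strand, 11 exons in its longest transcript) encodes the accessory subunit shared by receptors of the interleukin 1 family, and a neuronal form acts at synapses. It stood at 97.0, 78.6 and 93.7 CPM in WT fear libraries, against 120.0, 112, 82.6, 76.0 and 79.6 CPM in WT home cage libraries. The WT groups overlapped, with means of 89.75 ± 9.79 CPM in WT fear and 94.1 ± 20.4 CPM in WT home cage libraries (SD, n = 3 and 5), so the plain values do not place Il1rap lower in WT fear mice beyond their spread. Within B1 the WT fear libraries were all below the WT home cage libraries (120.0 and 112 CPM), while the 3 WT home cage libraries of B2 were at 76.0 to 82.6 CPM, around the lowest WT fear library. Among KO mice Il1rap stood at 121, 112, 74.4 and 75.7 CPM in fear libraries, against 64.4, 55.0, 66.3, 69.1 and 65.5 CPM in home cage libraries. Every KO fear library was above every KO home cage library, but the share of all genes in such an order was not counted, so nothing is read from it. The KO fear libraries at 121 and 112 CPM are those of B1, which has no KO home cage library. The fitted fear difference was -0.41 ± 0.11 (log2) in WT and 0.24 ± 0.097 in KO mice, and without the batch term the WT value was -0.06 and the KO value 0.58. An antisense transcript, Gm20319, covers 4.86% of the Il1rap exon bases and averaged at most 0.037 CPM in any dorsal group.

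Serpinb8 (ENSMUSG00000026315.13, chr1:107590006-107610484, plus strand, 7 exons in its longest transcript), whose promoter is printed above, encodes an intracellular protease inhibitor; its human form inhibits furin. It stood at 2.07, 1.97 and 2.65 CPM in WT fear libraries, against 6.07, 7.40, 8.96, 7.39 and 9.44 CPM in WT home cage libraries, with no overlap. In KO fear libraries it stood at 5.33, 5.30, 2.64 and 2.74 CPM, against 6.99, 5.38, 6.83, 2.93 and 2.64 CPM in KO home cage libraries. The B3 libraries of both KO groups (2.64 to 2.93 CPM) lay around the highest WT fear library (2.65 CPM). A low Serpinb8 level was thus also found in untrained KO mice. Serpinb8 had a log2 difference of -1.61 ± 0.21 in WT and 0.01 ± 0.17 in KO mice.

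Srl (ENSMUSG00000022519.14, chr16:4480216-4541816, minus strand, 7 exons in its longest transcript) encodes sarcalumenin, a calcium-binding glycoprotein known from the sarcoplasmic reticulum of muscle. It stood at 21.5, 14.6 and 21.7 CPM in WT fear libraries, against 33.9, 33.5, 36.5, 36.9 and 36.5 CPM in WT home cage libraries. The WT groups did not overlap, with an SD of 4.05 CPM in WT fear and 1.60 CPM in WT home cage libraries (n = 3 and 5). Srl stood at 25.4, 26.9, 19.2 and 19.7 CPM in KO fear libraries, against 27.1, 28.2, 31.0, 20.7 and 20.1 CPM in KO home cage libraries, and the 4 B3 libraries again lay within the WT fear range. For Srl the log2 difference was -0.83 ± 0.13 in WT and -0.05 ± 0.11 in KO mice.

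Calhm5 (ENSMUSG00000049872.8, chr10:34087815-34096519, minus strand, 2 exons) belongs to the calcium homeostasis modulators, which form large-pore channels. It stood at 8.28, 6.25 and 6.06 CPM in WT fear libraries, against 12.8, 14.2, 15.1, 12.7 and 13.3 CPM in WT home cage libraries. The KO levels were 9.29, 11.4, 10.9 and 12.1 CPM in fear libraries, against 14.5, 12.9, 12.6, 9.71 and 11.2 CPM in home cage libraries. All 3 WT fear libraries were below all 14 others, and B1 and B3 did not differ in KO fear as they did for Arg2: the ratio of the KO fear means of B1 to B3 was 0.902 for Calhm5 and 3.02 for Arg2. Calhm5 had a log2 difference of -0.90 ± 0.17 in WT and -0.03 ± 0.14 in KO mice.

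Scgn (ENSMUSG00000021337.8, chr13:23953456-23991214, minus strand, 11 exons in its longest transcript) encodes secretagogin, a calcium sensor of neuroendocrine cells and some interneurons. It stood at 3.20, 1.86 and 1.77 CPM in WT fear libraries, against 5.05, 7.78, 3.97, 7.11 and 6.84 CPM in WT home cage libraries. The WT groups did not overlap, though the nearest libraries were less than 1 CPM apart. In KO fear libraries Scgn stood at 7.38, 10.1, 2.37 and 2.08 CPM, against 4.67, 3.82, 5.38, 2.51 and 2.44 CPM in KO home cage libraries. The B1 KO fear libraries included the highest of all 17 dorsal libraries, while the B3 ones were within the WT fear range. The ratio of the KO fear means of B1 to B3 was 3.93, the widest of the 7 genes. For Scgn the log2 difference was -1.74 ± 0.35 in WT and 0.27 ± 0.28 in KO mice.

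**Figure D1:**
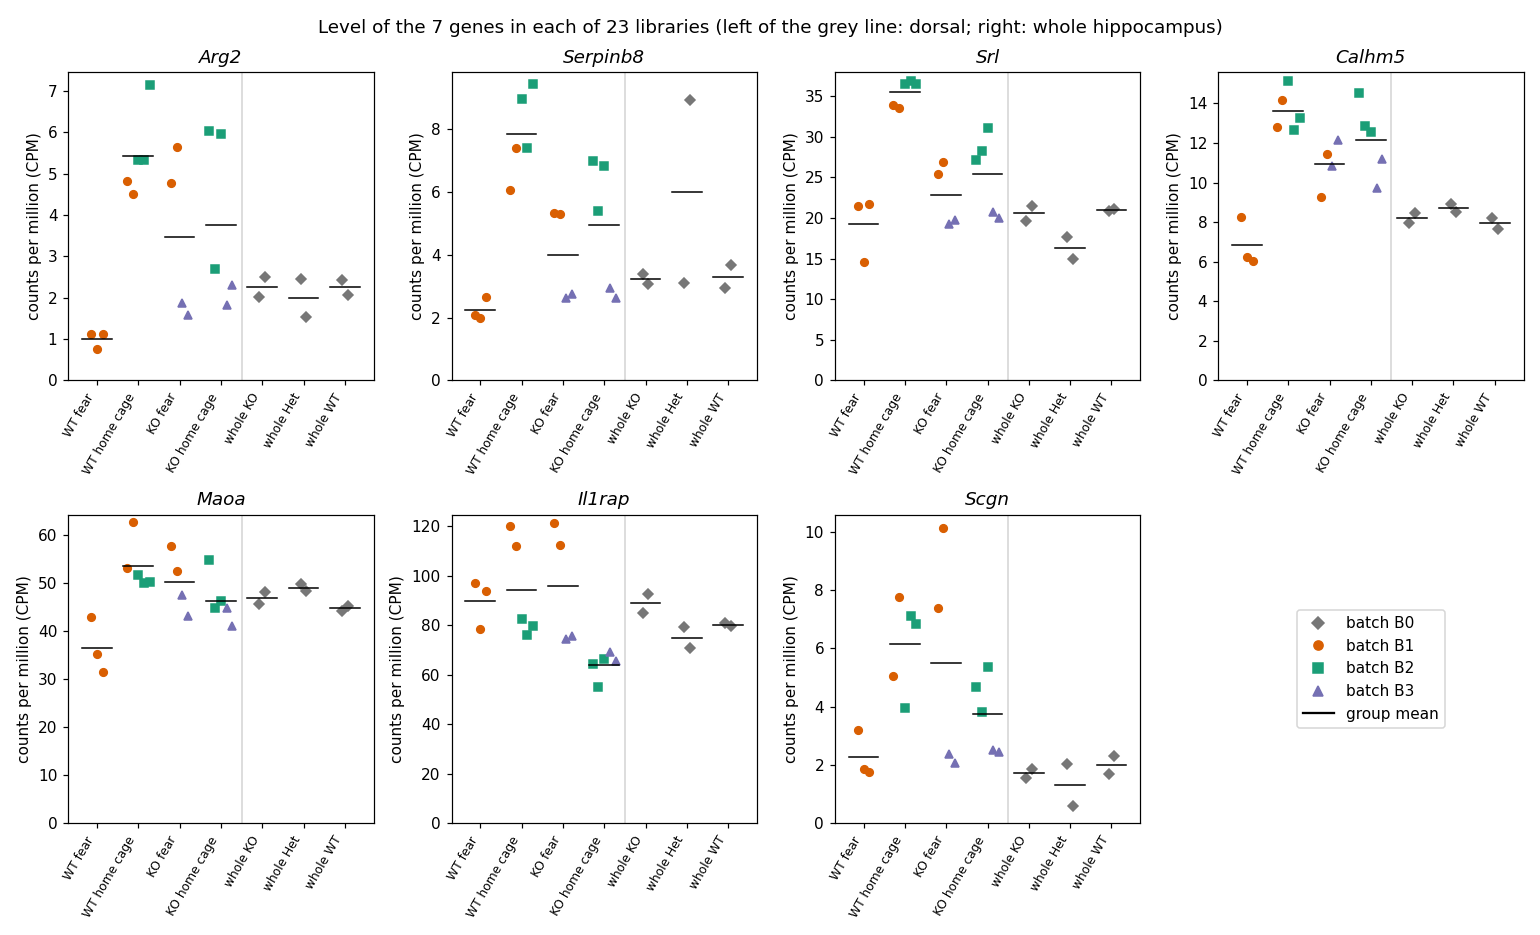
Level of each gene in CPM (vertical axes, linear, from 0) in each of the 23 libraries; each point is a library, its colour and shape the batch in the labels, and the bar the group mean. In 6 of 7 panels the WT fear points lie below all WT home cage points, and in the Serpinb8, Srl and Scgn panels the B3 points of both KO groups lie near the WT fear points.

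Seen by library, then, low levels were not confined to WT fear mice for the genes other than Arg2 and Calhm5. For Serpinb8, Srl and Scgn the other libraries in or near the WT fear range were those of B3, which holds KO libraries only. For 6 of the 7 genes, all but Il1rap, all 3 WT fear libraries were below all 5 WT home cage libraries, an order found in 8.45% of all genes tested. For 2 of the 7, Arg2 and Calhm5, they were also below the other 14 dorsal libraries, as in 3.42% of all genes. Within B1 all 7 genes had the 3 WT fear libraries below the other 4, as in 8.99% of all genes. The rule used these libraries, so nothing is read from those shares.

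In the fit with a batch term, edgeR called 6 of the 7 genes lower in WT fear than in WT home cage libraries, again all but Il1rap, against 0.756% of all genes called lower. B1 alone, fitted on its 7 libraries, called 2 of the 7, Arg2 and Serpinb8, against 0.504% of 13900 genes, and its 5 WT libraries by themselves called 0. The rule used this contrast, so nothing is read from these counts. The log2 differences in B1 alone stayed close to those with the batch term: -2.21 ± 0.35 for Arg2, -1.57 ± 0.285 for Serpinb8, -0.80 ± 0.18 for Srl, -0.98 ± 0.22 for Calhm5, -0.66 ± 0.16 for Maoa, -0.36 ± 0.14 for Il1rap and -1.52 ± 0.34 for Scgn. All WT fear libraries are in B1, so both fits share much of their data and their closeness is no separate support. The median of the 7 was -0.90 with the batch term and -0.98 in B1 alone, and that of all genes -0.02 with the batch term. Among lower genes, the last inside the call threshold was 2810468N07Rik (-0.79 ± 0.19) and the first outside it was Prss23 (-0.69 ± 0.17). Without WT home cage 2, edgeR called 1 of the 7 genes lower and no other gene lower (5 higher), so the calls of lower genes on the lists below were lost too. Without WT fear 2 or WT fear 3 it called 2 of the 7. Without KO home cage 4 it called 4 of the 7.

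In KO mice edgeR called 0 of the 7 genes between fear and home cage, and 0% of all genes. At an unadjusted p under 0.05 it had 714 of 14808 genes, and DESeq2 called 6. The median of the 7 log2 differences was 0.04, against a median of all genes of 0.00. B3 is the only batch with both KO groups, and there the 7 differences ran from -0.27 ± 0.29 for Arg2 to 0.15 ± 0.092 for Il1rap, with a median of -0.06. For Srl and Scgn both B3 KO fear libraries were below both B3 KO home cage libraries, and for Il1rap both were above. The share of all genes in such an order was not counted, so nothing is read from it. For Srl and Scgn the gap was within counting error. For Srl, KO fear 3, at 19.2 CPM, had a 95% Poisson interval of 17.3 to 21.3 CPM, which held the B3 KO home cage levels of 20.7 and 20.1 CPM. For Scgn the same library, at 2.37 CPM, had an interval of 1.72 to 3.18 CPM. The B1 KO fear libraries have no KO home cage library of their batch, so their part in the KO fear change rests on the batch term.

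**Figure D2:**
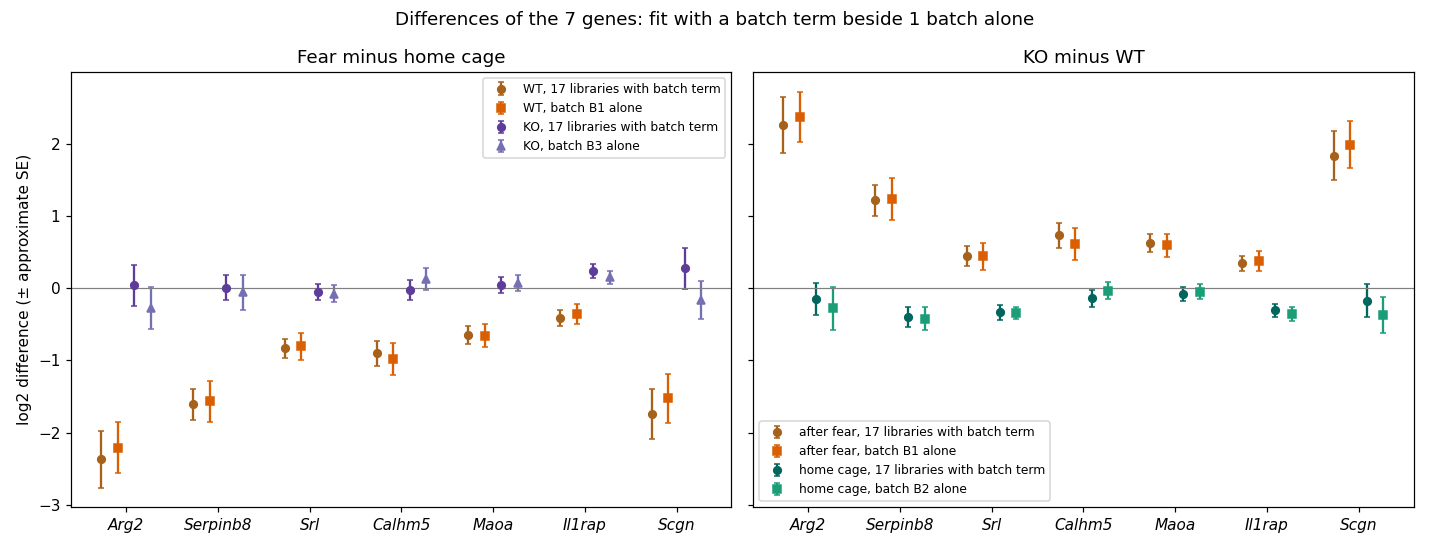
Log2 differences of the 7 genes with approximate SE bars (vertical axes), fear minus home cage on the left and KO minus WT on the right, each from the 17-library fit with a batch term beside the fit of a single batch. The WT fear differences lie between -2.37 and -0.36 in both fits and the KO fear differences between -0.27 and 0.27; after fear, KO minus WT is above 0 for all 7 genes.

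The fear change in KO minus that in WT, on the log2 scale, was 2.41 ± 0.43 for Arg2, 2.01 ± 0.38 for Scgn, 1.61 ± 0.23 for Serpinb8, 0.87 ± 0.19 for Calhm5, 0.78 ± 0.15 for Srl, 0.70 ± 0.14 for Maoa and 0.65 ± 0.12 for Il1rap. edgeR called 6 of the 7 higher, all but Calhm5, against 0.196% of all genes. The rule used this difference too, so nothing is read from the count. In 10 of the 17 fits that left out a library, edgeR called 0 of the 7, at an unadjusted p under 0.05 for 2206 to 3498 of all genes. From B1 and B3 alone the values ran from 0.50 for Il1rap to 1.94 for Arg2, with a median of 1.11 against 0.87 over all batches, and 0 of the 7 were called, with 1218 of all genes at an unadjusted p under 0.05.

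In the fit with a batch term KO fear was above WT fear for all 7 genes, though by library the groups overlapped for Serpinb8, Srl, Il1rap and Scgn, and both B3 KO fear libraries were below every WT fear library for Il1rap. The choice of the genes used these fear libraries. The log2 difference (KO fear minus WT fear) was 2.26 ± 0.39 for Arg2, 1.84 ± 0.34 for Scgn, 1.22 ± 0.22 for Serpinb8, 0.73 ± 0.18 for Calhm5, 0.62 ± 0.13 for Maoa, 0.44 ± 0.13 for Srl and 0.34 ± 0.11 for Il1rap. edgeR called 7 of 7 higher, in a comparison in which it called 10.2% of all genes higher and 12.1% lower. B1 alone called 4 of the 7 higher (Arg2, Serpinb8, Maoa and Scgn), against 7.88% of its genes. With WT fear 2, WT fear 3 or KO fear 2 left out of the 17 libraries, edgeR called 0 of the 7 (3942 to 4421 of all genes at an unadjusted p under 0.05), and without KO fear 1 it called 5.

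In the home cage all 7 genes were lower in KO than in WT libraries in the fit, with 0 of the 7 called and 0.00675% of all genes called. The log2 difference (KO home cage minus WT home cage) was largest in size for Serpinb8, at -0.40 ± 0.13, Srl, at -0.34 ± 0.099, and Il1rap, at -0.31 ± 0.086. For the same 3 genes every KO home cage library of B2 was below every WT home cage library of B2. The fit used these libraries too, and the share of all genes in this order was not counted. Nothing is read from it. The other 4 ran from -0.17 ± 0.23 for Scgn to -0.08 ± 0.098 for Maoa. At an unadjusted p under 0.05 edgeR had 1674 of all genes, and DESeq2 called 2. Without KO home cage 3 edgeR called 326 genes higher and 259 lower of 14776, and 0 of the 7.

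Whole hippocampus gives the test that the choice of genes did not touch, for untrained mice only. None of the 7 genes passed edgeR's test between whole KO and whole WT hippocampus: the adjusted p ran from 0.803 to 0.999, with 0 genes at an unadjusted p under 0.05 and 0 called by DESeq2. In this comparison edgeR called 0.0388% of all genes. The largest difference with a small error was that of Il1rap, at 85.1 and 92.7 CPM in KO libraries, against 81.0 and 79.5 CPM in WT libraries, a log2 difference of 0.15 ± 0.073 (edgeR adjusted p = 0.803). Arg2 stood at 2.03 and 2.51 CPM in KO libraries and at 2.42 and 2.08 CPM in WT libraries (0.01 ± 0.28). Serpinb8 stood at 3.40 and 3.06 CPM in KO libraries, against 2.93 and 3.66 CPM in WT libraries (-0.03 ± 0.46). The SEs of Arg2, Serpinb8 and Scgn exceed the differences these genes had between dorsal KO and WT home cage libraries (-0.15, -0.40 and -0.17), so differences of that size were not detectable for them at this depth and number of libraries. A call was not assured for the other genes either. Calhm5 and Maoa had dorsal home cage differences of -0.14 and -0.08, beside SEs of 0.11 and 0.059 here. Srl, at -0.37 ± 0.10 in whole Het against WT, was not called (edgeR adjusted p = 0.289).

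Srl stood at 19.6 and 21.5 CPM in whole KO and 20.8 and 21.1 CPM in whole WT libraries (-0.03 ± 0.10). Calhm5 stood at 7.96 and 8.48 CPM in whole KO and 8.23 and 7.63 CPM in whole WT libraries (0.05 ± 0.11). Maoa stood at 45.8 and 48.2 CPM in whole KO and 44.3 and 45.3 CPM in whole WT libraries (0.07 ± 0.059). Scgn stood at 1.56 and 1.87 CPM in whole KO and 1.69 and 2.30 CPM in whole WT libraries (-0.23 ± 0.50). The libraries of the 2 genotypes overlapped for 5 genes, and for Maoa and Il1rap both KO libraries were above both WT libraries. With 2 libraries a group such an order comes easily. Its share of all genes was not counted, so nothing is read from it.

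In Het against WT whole hippocampus edgeR called 0 of the 7 genes and 0% of all genes, with 1 of the 7, Srl, at an unadjusted p under 0.05, and DESeq2 called 0 of the 7. Srl stood at 17.6 and 15.0 CPM in Het libraries, against 20.8 and 21.1 CPM in WT libraries (log2 difference -0.37 ± 0.10, edgeR adjusted p = 0.289). Serpinb8 stood at 3.09 and 8.92 CPM in Het libraries, against 2.93 and 3.66 CPM in WT libraries (0.89 ± 0.45, edgeR adjusted p = 0.425), and Scgn at 2.02 and 0.595 CPM in Het libraries, against 1.69 and 2.30 CPM in WT libraries. In both genes it was Het 2 that stood away. Het 2 also had a summed level of 10 neocortex marker genes of 625 CPM, against 342 to 397 CPM in the other 5 whole libraries, and a CA1 marker sum of 644 CPM, against 855 to 935 CPM; the part of this in its Serpinb8 and Scgn levels was not tested. Without Het 1, which leaves Het 2 to stand for the group with a spread assumed from the others, edgeR called 3 of the 7, along with 788 genes higher and 636 lower of 15814 tested, and without Het 2 it called 0 of the 7.

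In KO against Het whole hippocampus edgeR called 0 of the 7 genes and 0.0841% of all genes, with Srl and Il1rap at an unadjusted p under 0.05, and DESeq2 called 0 of the 7. The log2 difference was 0.34 ± 0.10 for Srl (edgeR adjusted p = 0.300), 0.25 ± 0.073 for Il1rap (edgeR adjusted p = 0.296) and -0.91 ± 0.45 for Serpinb8. Without Het 1 edgeR called 2 of the 7, Il1rap and Serpinb8, along with 519 genes higher and 692 lower of 15814 tested, and without Het 2 it called 0 of the 7.

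**Figure D3:**
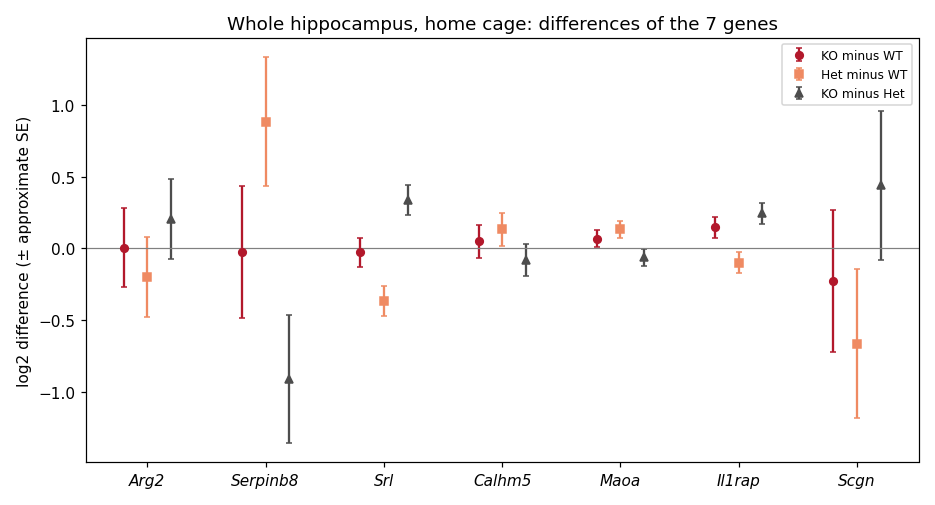
Log2 differences of the 7 genes in whole hippocampus of untrained mice (vertical axis, with approximate SE bars), for KO minus WT, Het minus WT and KO minus Het. The KO minus WT points lie between -0.23 and 0.15, and the widest bars belong to the low genes Serpinb8, Scgn and Arg2.

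Set per length of exon, the order of the genes in WT home cage libraries was Maoa, Il1rap (8.28 ± 1.80 CPM per kb), Srl (6.66 ± 0.300), Arg2 (3.80 ± 0.715), Scgn (3.80 ± 0.978), Calhm5 (2.56 ± 0.195) and Serpinb8 (1.64 ± 0.283; SD, n = 5 for each). These lengths count the exon bases of all transcripts, 11360 for Il1rap against 4520 in its longest transcript. The order of Maoa and Il1rap thus depends on the length used. By these lengths, neighbours within 1 SD of each other were Il1rap and Srl, and Arg2 and Scgn. In WT fear libraries Maoa and Il1rap (7.90 ± 0.862 CPM per kb) again came before Srl (3.62 ± 0.760), Scgn (1.41 ± 0.495), Calhm5 (1.29 ± 0.231), Arg2 (0.708 ± 0.148) and Serpinb8 (0.466 ± 0.0765; SD, n = 3 for each). Arg2 thus stood above Calhm5 per length in WT home cage libraries and below it in WT fear libraries, while Scgn and Calhm5 were within 1 SD of each other after fear.

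Other genes of each member's pathway or family were counted in the same contrast. Of the other arginine and polyamine genes, 0 of 19 tested were called in WT fear against WT home cage, with a median log2 difference of -0.02; the nitric oxide synthase gene Nos1, which uses the same substrate as arginase, was at 0.76 ± 0.28 (edgeR adjusted p = 0.14). Of the monoamine genes 0 of 15 were called (median -0.23), with Maob, the sister enzyme of Maoa, at -0.28 ± 0.16 (edgeR adjusted p = 0.319). Of the interleukin 1 family genes 0 of 16 were called (median -0.30), with the signalling receptor Il1r1 at 0.19 ± 0.22 (edgeR adjusted p = 0.618). At an unadjusted p under 0.05 edgeR had 6, 4 and 4 genes of these lists, and DESeq2 called 1 lower in each. The median of all 14808 genes was -0.02.

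Of the other clade B serpins, 1 of 5 tested fell in WT fear mice: Serpinb1b, by 2.27 ± 0.53 on the log2 scale (edgeR adjusted p = 0.0452). Serpinb1a, an inhibitor of neutrophil proteases, was at -1.33 ± 0.34 (edgeR adjusted p = 0.0547), Serpinb6b at -1.86 ± 0.73 and Serpinb9 at -0.18 ± 0.25, so the list's median was -1.33. The near-identical members of this family can share reads, so these values are uncertain. Of the other CALHM genes only Calhm2 could be tested, at 0.75 ± 0.26 (edgeR adjusted p = 0.116), a sign opposite to that of Calhm5. Of the calcium store genes 1 of 20 rose, the release channel gene Itpr1, by 0.76 ± 0.19 (edgeR adjusted p = 0.0494; list median 0.07). Of the EF-hand calcium-binding genes 0 of 22 were called (median 0.01), with 6 at an unadjusted p under 0.05 and 4 called by DESeq2; Calb1 was at 0.63 ± 0.18 and Calb2 at 0.37 ± 0.53. For the difference of the fear changes, edgeR called 0 in each of these 7 lists, with 1 to 8 genes a list at an unadjusted p under 0.05; DESeq2 called 0 to 2 a list, 2 of them clade B serpins, both higher.

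Marker genes of cell types moved in the same contrast. In WT fear against WT home cage libraries edgeR called 9 of 12 oligodendrocyte genes lower (median log2 difference -1.23), 5 of 10 ependymal genes lower (-3.23) and 4 of 12 CA2 and CA3 genes lower (-0.92), and 5 of 9 CA1 genes higher (1.20). Pericyte and smooth muscle genes had 2 called lower, and choroid plexus and thalamus lists 1 each. The astrocyte, microglia, endothelial, meningeal fibroblast, dentate granule cell and interneuron lists had 0 called by edgeR, with 0 to 4 genes each at an unadjusted p under 0.05, and DESeq2 called 1 astrocyte and 1 endothelial gene lower. For the difference of the fear changes edgeR called 4 of 10 ependymal and 3 of 12 CA2 and CA3 genes higher and 3 of 9 CA1 genes lower, and 0 of 12 oligodendrocyte genes, all 12 of which had an unadjusted p under 0.05; DESeq2 called 8 of them higher. None of these marker genes present in the table was at 0 in a whole group. In bulk tissue fewer cells of a type and less RNA per cell cannot be told apart.

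The summed ependymal level was 9.22 to 12.1 CPM in WT fear libraries, against 44.3 to 123 CPM in WT home cage libraries; it was 32.2 to 84.2 CPM in KO fear and 27.9 to 129 CPM in KO home cage libraries. The oligodendrocyte sum was 4087 to 5469 CPM in WT fear libraries, against 7039 to 14080 CPM in WT home cage libraries, and the CA2 and CA3 sum was 620 to 898 CPM in WT fear, against 1048 to 1383 CPM in WT home cage libraries. In all of these the WT fear libraries lay below every other dorsal library except for the CA2 and CA3 sum, where KO fear (858 to 1112 CPM) overlapped. The CA1 sum was 718, 1176 and 1226 CPM in WT fear libraries, against 427 to 609 CPM in WT home cage libraries. In KO fear libraries it was 413 to 439 CPM in B1 and 928 to 1045 CPM in B3, and in KO home cage libraries it was 413 to 951 CPM in B2 and 937 to 1008 CPM in B3. The B3 libraries of both KO groups, in which Arg2, Serpinb8, Srl and Scgn were lower than in every other KO library, also had a high CA1 sum. In the B2 KO home cage libraries, with CA1 sums of 413 to 951 CPM, Serpinb8 stood at 5.38 to 6.99 and Srl at 27.1 to 31.0 CPM. Arg2 stood there at 2.69 to 6.03 and Scgn at 3.82 to 5.38 CPM. CA1 sums and gene levels were not set against each other library by library. B3 holds KO libraries only. The part of tissue makeup in the levels of the 7 genes was not tested.

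**Figure D4:**
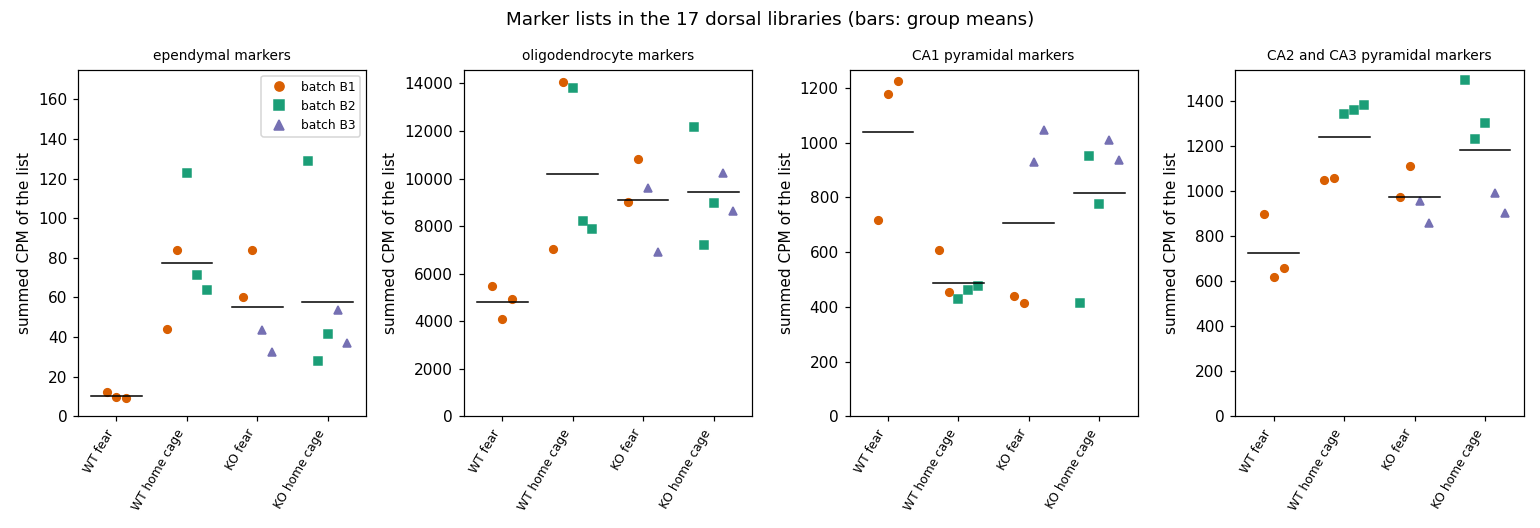
Summed CPM of 4 marker lists (vertical axes, linear, from 0) in the 17 dorsal libraries by group; points are libraries, coloured by batch, and bars are group means. The ependymal and oligodendrocyte sums are lowest in the 3 WT fear libraries, and the CA1 sum is high in WT fear, in all B3 libraries and in 2 of 3 B2 KO home cage libraries.

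The genes most like each member were named by Pearson's r of log2 CPM over the 17 dorsal libraries, with batch removed, as a description; the libraries share their groups and their depth. They were Lgals3 (r = 0.959), Ccdc153 and 5930412G12Rik for Arg2; Dnah11 (0.955), Kcnmb1 and Spag17 for Serpinb8; and Spag17 (0.967), Col8a2 and Smim5 for Maoa. For Calhm5 they were Tmem215 (0.960), Cyp27a1 and Gm13293, for Scgn Nr1h3 (0.927), Sostdc1 and Gsto1, for Srl Pmm2 (0.935), Arhgef37 and Itga7, and for Il1rap Cald1 (0.888), Lman2 and Smc5. Pmm2 and Lman2 had a much lower r where batch was not removed, 0.247 with Srl and -0.382 with Il1rap. Ccdc153, Dnah11 and Spag17 stand on the ependymal list used above and Sostdc1 on the choroid plexus list. Among the 7 genes themselves r ran from 0.594 (Calhm5 and Il1rap) to 0.936 (Arg2 and Serpinb8) over 21 pairs. The genes were chosen for a like pattern in these libraries, and group differences were kept in r. High values among them follow from the choice, so nothing is read from them.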

How the data were processed

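Poly(A) RNA-seq libraries from 23 samples, made with an unstranded kit per the labels' protocols, were read from 2 gene tables. The deposited counts are whole reads per gene symbol. Per the submitters' processing notes, mm10, HTSeq 0.9.1, STAR, limma, SAMtools 1.1 and DESeq2 belong to their pipeline; the roles and the annotation are not given in the sources used here. Normalized values (signal), also deposited, equal the counts divided by a size factor in whole hippocampus, by comparison of the 2 columns, and are compressed for low counts in dorsal hippocampus; what the authors did there is not stated. They were used only as an alternative, as log2 with a pseudocount of 1.

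Counts were tested with edgeR 4.0.16 (R 4.3.3): TMM, filterByExpr (minimum count 10, minimum total 15), quasi-likelihood F test and Benjamini-Hochberg adjustment over all genes, threshold 0.05. Group was the only term for the 6 whole hippocampus libraries (3 residual degrees of freedom); group and batch were used for the 17 dorsal ones (11). The approximate SE is the log2 difference divided by the square root of F. CPM values use TMM-scaled library sizes. limma 3.58.1 removed batch for the likeness measure (prior count 2). DESeq2 1.42.0, other scaling, no filter, no batch term, single batches, a replicate block and leaving out each library were alternatives. The fit was tested on simulated data. Replicate numbers were not taken to pair the libraries. No 2 libraries agreed within sampling noise.

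The 7 genes and the lists were chosen with earlier results of these data known. Text names all 7 genes, the 3 most alike genes for each, pathway genes called, and the genes at either side of the call threshold; Nos1, Maob, Il1r1, Serpinb1a, Serpinb6b, Serpinb9, Calhm2, Calb1 and Calb2 were named after their values were seen. In dorsal hippocampus 26 symbols had been turned into dates, and these were not used. Gene coordinates and exon lengths come from GENCODE for mm10.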

Additional observations from a re-analysis of the deposited data

Results flagged for a closer look

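Maoa in WT home cage 2, at 62.7 CPM, stood away from the other 4 WT home cage libraries (50.03 to 53.2 CPM). It was the only value of 21 tests of a gene in a group to do so, and chance gives about 1 in 20. Without this library edgeR called 1 of the 7 genes in WT fear against WT home cage.

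The fear change differed between KO and WT mice by edgeR for 6 genes, with log2 differences of 2.41 for Arg2, 2.01 for Scgn, 1.61 for Serpinb8, 0.779 for Srl, 0.699 for Maoa and 0.65 for Il1rap. These values are part of what chose the genes, so they are not independent evidence, and edgeR called none of the 7 in 10 of the 17 fits that leave out a library.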

How the results depend on the processing

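The low depth of Arg2, Serpinb8 and Scgn (6 to 21 reads per WT fear library) and the lack of a KO home cage library in B1 limit the dorsal values; 2 libraries a group limit the whole hippocampus ones. In WT fear against WT home cage edgeR called 112 genes lower and 129 higher, DESeq2 414 and 524 (all 7 genes lower), and the fit with a replicate block 6 and 9 (3 of the 7). For the difference of the fear changes edgeR called 29 higher and 42 lower, 39 and 91 with RLE size factors, 326 and 581 with DESeq2 (7 of 7 higher) and 0 with a replicate block or without the batch term (0 of the 7 in both, with 2849 and 1841 of all genes at an unadjusted p under 0.05). For KO fear against WT fear edgeR called 2 of the 7 without the batch term (712 genes higher and 832 lower) and 0 of the 7 with a replicate block (0 higher and 1 lower). Leaving out a library gave 1 to 7 of the 7 called in WT fear against WT home cage, with 1 called without WT home cage 2. Libraries with the same number share only that number: their deviations from the group means correlated at -0.506 to 0.288 over 22 dorsal pairs and at -0.678 to 0.388 over 6 whole hippocampus pairs.

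The median log2 difference of the 7 genes was -0.65 for WT fear against WT home cage and 0.61 for the difference of the fear changes from the deposited normalized values, in which low genes are compressed, and 1.11 for that difference from B1 and B3 alone. For KO fear against WT fear it was 0.60 with a replicate block, 0.52 from the deposited values and 0.61 in B1 alone, and 0.65 to 0.88 with a library left out. For KO fear against KO home cage it was -0.15 without the batch term, and for KO home cage against WT home cage -0.52 without the batch term and -0.34 in B2 alone. The causes were not tested.

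In whole hippocampus, with a library left out, the 7 genes had 0 to 3 called for Het against WT and 0 to 2 for KO against Het. In KO against WT the log2 difference ran from -0.15 to 0.16 for Arg2, -0.19 to 0.14 for Serpinb8 (0.018 with a replicate block), -0.0027 to 0.10 for Calhm5, -0.44 to 0.013 for Scgn and -0.093 to 0.037 for Srl. In Het against WT it ran from -0.56 to 0.12 for Arg2, -0.10 to 1.43 for Serpinb8 and -1.74 to 0.015 for Scgn. In KO against Het it ran from -0.12 to 0.57 for Arg2, -1.46 to 0.068 for Serpinb8 and -0.24 to 1.52 for Scgn. Each such fit leaves a group with 1 library that is assumed to vary like the others.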
